A study of Drosophila melanogaster with 9 samples.

Results

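The Bithorax complex is a cluster of 3 homeotic genes on chromosome arm 3R of Drosophila melanogaster, Ubx, abd-A and Abd-B. Its contacts were taken from 2 lists of interacting 10 kb bins made by Hi-C, a method that joins and sequences DNA ends lying near each other in fixed nuclei. The members are all listed pairs on 3R with at least 1 bin among the 34 bins of 3R from 12.47 to 12.81 Mb. The arm limits of the lists match genome Release 5 (dm3), although no label names a build. The window was touched by 381 different pairs, out of 82344 different pairs in both lists together.

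The heat-shock list covers 2 libraries together of Kc167 cells, an established line of female embryonic origin. The cells were grown at 25 °C, held at 37 °C for 20 min and fixed with formaldehyde, and their chromatin was cut with HindIII. It was set against the companion list, so named because no label used here gives its cells, its treatment or its number of libraries. Each list is a single set of called pairs without read counts or replicates, so no test between the lists was possible, and absence of a pair from a list means only that it did not pass the authors' limit there. Of all pairs, 59303 were in the heat-shock list, versus 33978 in the companion one.

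Homeotic genes encode homeodomain transcription factors that give each body segment its identity. Ubx acts in the posterior thorax and anterior abdomen, abd-A in the middle abdomen and Abd-B in the posterior abdomen, and along the chromosome they lie in the same order as the segments they pattern. Polycomb proteins keep the genes silent where they are not needed, and boundary elements divide the large regulatory region between them into separate domains. The Antennapedia complex, the other homeotic cluster of 3R, holds lab, pb, Dfd, Scr and Antp, which pattern the head and anterior thorax. In fly tissues where both clusters are silent, they have been seen close together in the nucleus. In the Release 6 gene table of RefSeq, Ubx lies nearest the centromere, at the low end of the arm's positions, abd-A next and Abd-B farthest, and 13 other annotated genes start between Ubx and Abd-B, 3 of them protein-coding. That table is of another build than the lists, so no gene was placed in a single bin.

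Pairs with both bins inside the complex were fewer in the heat-shock list. There were 3 inside pairs in the heat-shock list, versus 18 in the companion one, a ratio of 0.167 (95% interval 0.0314 to 0.571, counting error only). All pairs of 3R ran the other way, with 16151 in the heat-shock list, versus 7711 in the companion one, a ratio of 2.09 (2.04 to 2.15). At the distances that the inside pairs spanned, 120 to 290 kb, 3R had 916 heat-shock pairs and 799 companion pairs, a ratio of 1.15 (1.04 to 1.26). The 3 heat-shock inside pairs were in the companion list as well, so 15 companion pairs had no counterpart and no inside pair was found in the heat-shock list alone. Most of the companion inside pairs had scores in the weaker part of their list. In the strongest 50% of each list there were 2 heat-shock and 5 companion inside pairs, a ratio of 0.40 with an interval (0.0381 to 2.44) that includes 1.

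Against the rest of the arm, the complex was rich in inside pairs in the companion list, and its few heat-shock pairs stood less clearly apart. Of the 528 possible pairs of its bins at least 20 kb apart, the heat-shock list held 0.568% (0.117 to 1.65%) and the companion list 3.41% (2.03 to 5.33%). The shares for all 3R bin pairs over the same distances were 1.86% in the heat-shock list, versus 1.41% in the companion one. Weighted by distance, the rate of 3R gives 9.82 inside pairs for the heat-shock list and 6.41 for the companion list, so the listed numbers were below it in the first case and above it in the second. With the bins in the top 1% by partners left out, the rate gives 5.97 for the heat-shock list and 4.96 for the companion list. Up to 110 kb apart, a limit set just below the shortest listed inside pair, the complex had 0 of 275 possible pairs in each list. That 0 follows from the choice of the limit. The rate of 3R gives 5.15 pairs there in the heat-shock list, versus 2.49 in the companion one. All listed inside pairs joined bins at least 120 kb apart. Over the distances they did span, the heat-shock list held 3 of 243 possible pairs (1.23%, 0.255 to 3.57%), against 1.84% on 3R and 4.48 pairs at its rate, and the low number there did not stand apart from the arm. The companion list held 18 of the 243 (7.41%, 4.45 to 11.5%), against 1.60% on 3R and 3.74 pairs at its rate. The limits of this band were set by the listed inside pairs themselves. That raises the shares of the complex in the band by construction, and the intervals do not allow for it.

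All inside pairs joined a lower bin starting at or before 12660001 to an upper bin starting at or after 12700001. A distance of at least 120 kb within a window of 340 kb by itself favours such a layout. The 3 heat-shock pairs are among the 18 companion pairs, so their layout is no separate observation. The 3 heat-shock pairs joined bins between 12500001 and 12570000 to bins between 12720001 and 12800000. The strongest, 3R 12560001-12570000 with 3R 12790001-12800000, scored -3.13 in the heat-shock list, versus -2.58 in the companion one. The authors' score was taken to rank pairs within a list, a lower value being stronger, and the values of the 2 lists may be on different scales. Next came 3R 12560001-12570000 with 3R 12720001-12730000, scored -2.60 in the heat-shock list, versus -2.04 in the companion one. The last, 3R 12500001-12510000 with 3R 12740001-12750000, scored -2.13 in the heat-shock list, versus -2.26 in the companion one.

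The 18 companion pairs joined 10 different bins between 12490001 and 12670000 to 8 different bins between 12700001 and 12800000. One bin, 3R 12780001-12790000, took part in 10 of the 18 companion pairs and in 0 of the 3 heat-shock pairs. Its strongest inside partner was 3R 12500001-12510000, 280 kb away, with a companion score of -4.03, followed by 3R 12660001-12670000 with -3.32, 3R 12620001-12630000 with -3.17 and 3R 12520001-12530000 with -2.88. None of these 4 pairs was in the heat-shock list. The remaining pair among the 5 strongest joined 3R 12560001-12570000 to 3R 12750001-12760000, with a companion score of -3.14, and was absent from the heat-shock list too. In total the bin 3R 12780001-12790000 had 20 heat-shock partners and 19 companion partners, but 20 of the heat-shock partners and 9 of the companion partners lay outside the complex. Their median distance, with inside partners counted, was 4.23 Mb in the heat-shock list, versus 0.29 Mb in the companion one. Without this bin the inside pairs numbered 3 in the heat-shock list, versus 8 in the companion one. The bin was picked as the one in most companion inside pairs, so leaving it out lowers the companion number by construction. A large part of the difference in inside pairs involved this bin, and no interval was computed for what was left.

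**Figure D1:**
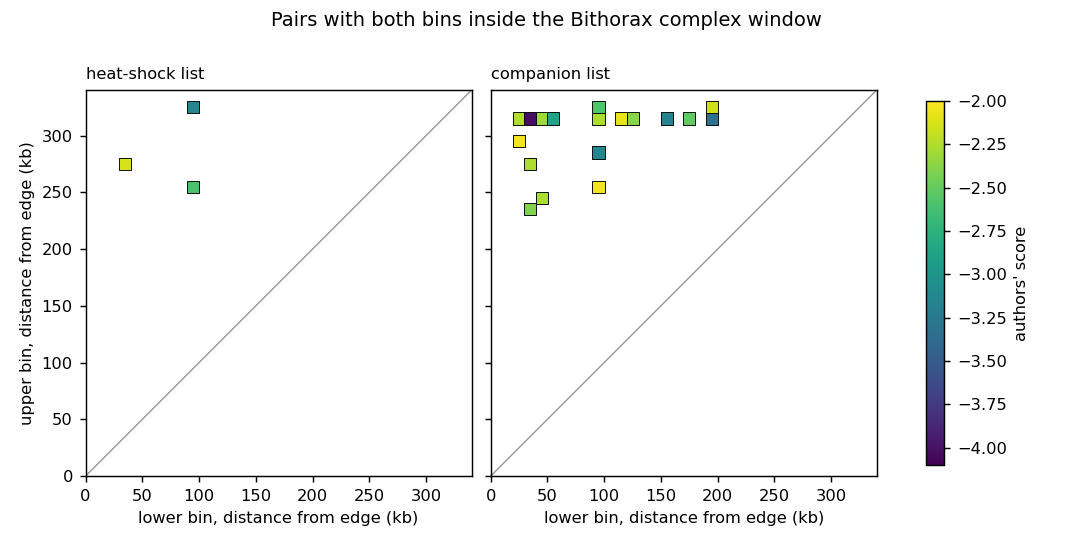
Pairs with both bins inside the Bithorax complex window, in the heat-shock list (left) and the companion list (right). Each square is 1 pair, placed by the distance of its lower bin (x axis, kb) and upper bin (y axis, kb) from the centromere-side edge of the window and coloured by the authors' score; the 3 heat-shock pairs are also among the 18 companion pairs, and 10 companion pairs form a row at 1 upper bin.

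To set this difference beside the rest of the arm, 3R was divided end to end from the complex into 81 windows of 340 kb. Fewer inside pairs in the heat-shock list were found in 25.9% of the windows and more in 63.0%. The complex differed by -15 (3 heat-shock minus 18 companion pairs), while the other 80 windows ran from -11 to 32 with a median of 2. Of the other windows, 53 had more inside pairs than the complex in the heat-shock list and 25 had fewer, while 4 had more in the companion list and 75 had fewer. This rank depends on where the windows begin. With the window moved along 3R in steps of 10 kb, 68 of 2757 positions had a difference of -15 or lower. Of these, 4 overlapped the complex and 64 lay at 10 separate places elsewhere, the lowest at -32. The decrease at the complex was among the larger ones on the arm but was not particular to it.

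**Figure D2:**
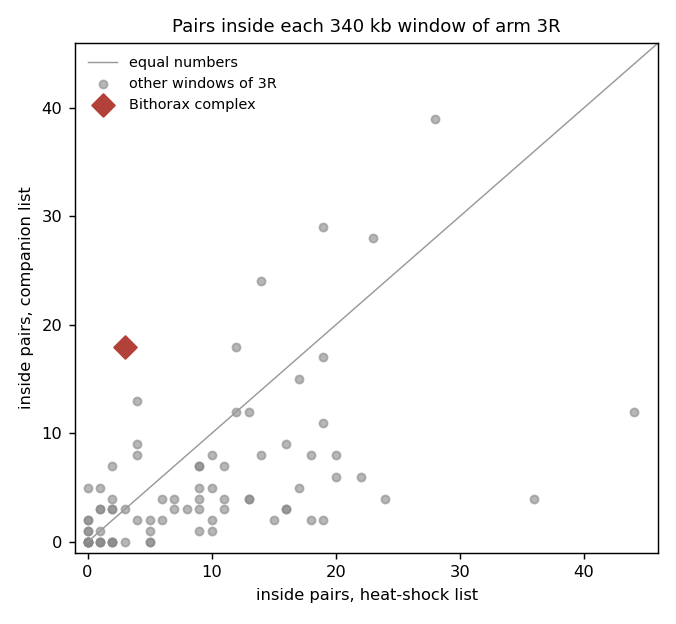
Pairs with both bins inside each 340 kb window of arm 3R, with the number in the heat-shock list on the x axis and in the companion list on the y axis. The diamond is the Bithorax complex, at 3 and 18 pairs, and grey points are the 80 other windows; the line marks equal numbers.

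No pair joined the Bithorax complex to the Antennapedia complex (37 bins of 3R from 2.47 to 2.84 Mb) in either list. The 2 windows allow 1258 bin pairs, from 9.64 to 10.33 Mb apart, and 0 were listed in each. Few pairs of 3R were listed at all at this distance, 0.118% of the possible pairs in the heat-shock list, versus 0.0486% in the companion one, and at that rate the heat-shock list would hold 1.47 pairs between the complexes and the companion list 0.511. These numbers are too low for a count of 0 to stand apart from the arm. The Antennapedia bins did have partners of their own, with 37 of 37 bins paired in the heat-shock list, versus 31 of 37 in the companion one, 374 and 127 pairs in all, of which 10 heat-shock pairs and 7 companion pairs lay inside that complex.

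The nearest approach to the Antennapedia complex came in the heat-shock list. There, 3R 12610001-12620000 was paired with 3R 2850001-2860000, 20 kb past the last Antennapedia bin, with a score of -2.52. The bin 3R 12720001-12730000 was paired with 3R 2390001-2400000, 80 kb before the first Antennapedia bin, with a score of -2.14. In the companion list the nearest partner was 3R 4490001-4500000, 1.66 Mb past the last Antennapedia bin, paired with the first bin of the Bithorax window and scored -2.42. Partners in the first 5 Mb of the arm, which includes the Antennapedia complex, numbered 14 in the heat-shock list, versus 4 in the companion one. With the Antennapedia window widened by 2 bins on each side, 1 heat-shock pair and 0 companion pairs joined the complexes.

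**Figure D3:**
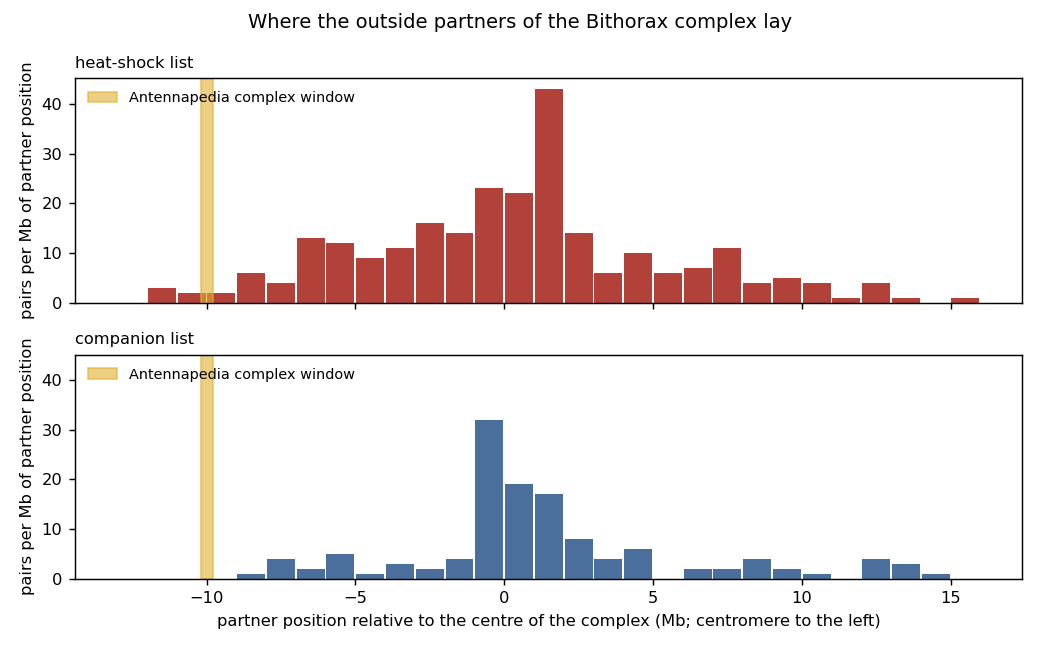
Number of pairs leaving the Bithorax complex (y axis) by the position of the outside bin in 1 Mb steps from the centre of the complex (x axis), in the heat-shock list (top) and the companion list (bottom). The shaded band is the Antennapedia complex window, which held no partner in either list; the tallest heat-shock step, 43 pairs, lies 1 to 2 Mb towards the telomere.

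All other pairs had 1 bin in the complex and 1 elsewhere on 3R, and are called leaving pairs. They numbered 254 in the heat-shock list, versus 127 in the companion one, a ratio of 2.0 (1.61 to 2.49). With the inside pairs, the complex was touched by 257 heat-shock pairs and 145 companion pairs, a ratio of 1.77 (1.44 to 2.19), against 2.10 (2.04 to 2.16) for the 3R pairs that did not touch it. In the 80 other windows of the arm this ratio ran from 1.27 to 4.11 with a median of 2.10. When as many of the strongest heat-shock pairs were taken as the companion list holds, the complex was touched by 142 heat-shock pairs and 145 companion pairs, a ratio of 0.979, while that of 3R was 1.22. With pairs touching bins in the top 1% by partners left out, the ratio was 1.71 (1.37 to 2.13) at the complex. That of 3R was then 1.59 (1.54 to 1.64), so the complex was not below the arm in every setting.

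The median leaving pair reached farther in the heat-shock list. Their median distance was 2.88 Mb (2.29 to 3.61 Mb) for heat-shock pairs, versus 1.40 Mb (1.14 to 2.29 Mb) for companion pairs. All 3R pairs had medians of 1.81 Mb (1.77 to 1.86 Mb) and 1.20 Mb (1.16 to 1.26 Mb). The 3R medians keep all short pairs, whereas leaving pairs exclude the inside pairs by definition. The medians of the complex are thus longer than those of 3R partly by construction. Over 5 Mb apart there were 88 heat-shock pairs and 31 companion pairs, a ratio of 2.84 (1.87 to 4.42), and over 1 to 5 Mb there were 121 and 46, a ratio of 2.63 (1.86 to 3.78). For all of 3R the ratios were 2.13 (2.0 to 2.26) over 5 Mb and 2.92 (2.79 to 3.05) over 1 to 5 Mb. Both lie inside the intervals of the complex, so the higher heat-shock numbers at these distances were not particular to it. Over 200 kb to 1 Mb the numbers were 44 in the heat-shock list, versus 49 in the companion one, a ratio of 0.898 (0.584 to 1.38), whereas 3R as a whole had a ratio of 1.44 (1.38 to 1.51) in that band. In the strongest 50% of each list the medians were closer, 2.67 Mb (2.17 to 4.0 Mb) for heat-shock and 2.11 Mb (1.30 to 4.72 Mb) for companion pairs, with overlapping intervals. The longest pair spanned 15.1 Mb in the heat-shock list, versus 14.28 Mb in the companion one.

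In both lists the complex had fewer leaving pairs than the arm has at the same distances. The number was 0.611 times that at the rate of 3R in the heat-shock list (254 against 416 pairs) and 0.676 times in the companion list (127 against 188 pairs). The rate of 3R includes bins rich in partners elsewhere on the arm. In a comparison added after the data were seen, with the bins in the top 1% by partners of either list left out, of which 52 lay on 3R and 0 in the complex, it was 0.904 times in the heat-shock list (224 against 248 pairs) and 0.782 times in the companion list (115 against 147 pairs). In the heat-shock list the ratio was lower for nearer pairs, with 0.435 over 200 kb to 1 Mb, 0.588 over 1 to 5 Mb and 0.875 over 5 Mb. In the companion list the same bands gave 0.709, 0.652 and 0.726. Up to 200 kb, 1 pair left the complex in each list, where the rate of 3R gives 7.84 in the heat-shock list, versus 5.66 in the companion one. The sides differed in the companion list, but not in the same direction at every distance. Over 200 kb to 1 Mb it had 31 pairs towards the centromere and 18 towards the telomere, where the rate of 3R gives 34.6 on each side, and over 1 to 5 Mb it had 11 and 35, where the rate gives 35.3 on each side. The heat-shock list had 23 pairs towards the centromere and 21 towards the telomere in the nearer band, and 48 and 73 in the farther one, where the rate gives 50.6 and 103 on each side.

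**Figure D4:**
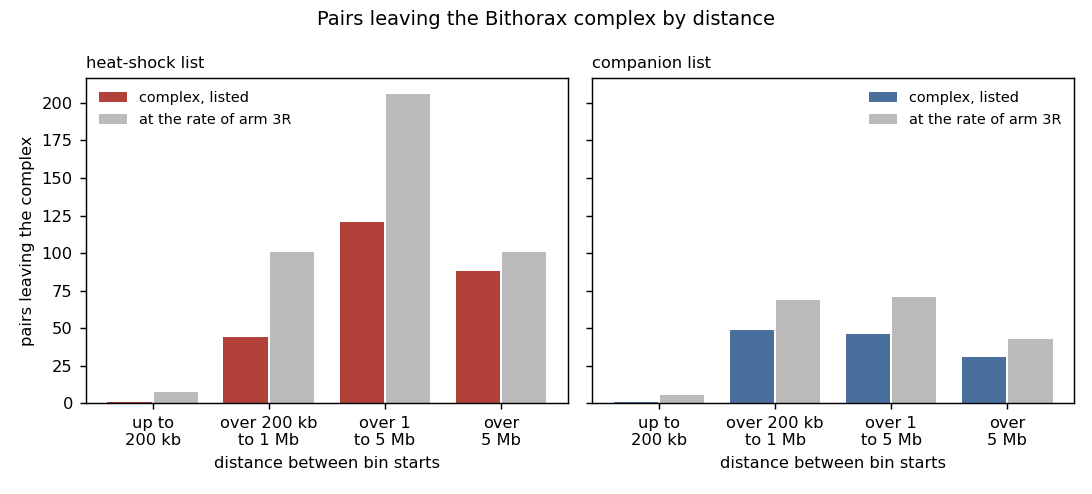
Pairs with 1 bin in the Bithorax complex and 1 outside, by distance between bin starts (x axis), in the heat-shock list (left) and the companion list (right). Coloured bars are the listed pairs and grey bars the number that the rate of all 3R bin pairs at the same distances gives; the listed numbers were below the grey bars in all 4 bands of both lists.

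A single bin carried a large part of the heat-shock pairs. The bin 3R 12560001-12570000, the tenth of the 34 from the Ubx end, had 70 partners in the heat-shock list, versus 18 in the companion one. It was in 27.2% (21.9 to 33.1%) of the heat-shock pairs of the complex and in 12.4% (7.53 to 18.9%) of its companion pairs. The next bins on either side were 3R 12550001-12560000, with 5 heat-shock partners and 1 companion partner, and 3R 12570001-12580000, with 0 in each list. On the whole arm, 54 bins had more partners than it in the heat-shock list, versus 139 in the companion one.

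The partners of this bin lay farther away in the heat-shock list. Their median distance was 1.22 Mb (0.97 to 1.56 Mb) for heat-shock partners, versus 0.565 Mb (0.23 to 0.85 Mb) for companion partners. Over 1 to 5 Mb it had 41 heat-shock partners and 3 companion partners, and over 200 kb to 1 Mb it had 26 and 13. More of them lay on the telomere side, 48 of 70 in the heat-shock list, versus 12 of 18 in the companion one. Of its 18 companion partners, 8 (44.4%, 21.5 to 69.2%) were also heat-shock partners, which is 11.4% of the heat-shock ones. The heat-shock step of 43 pairs at 1 to 2 Mb towards the telomere included 15 pairs of this bin. Without the bin, pairs touching the complex had a ratio of 1.47 (1.17 to 1.86), and the median distance of leaving pairs was 4.43 Mb in the heat-shock list, versus 1.55 Mb in the companion one. The ratio over 200 kb to 1 Mb was then 0.50 (0.272 to 0.889), from 19 heat-shock pairs and 38 companion pairs. The bin was picked for its many heat-shock partners, so leaving it out lowers these ratios by construction. Their intervals do not allow for that, and no such bin was left out of other windows of 3R.

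**Figure D5:**
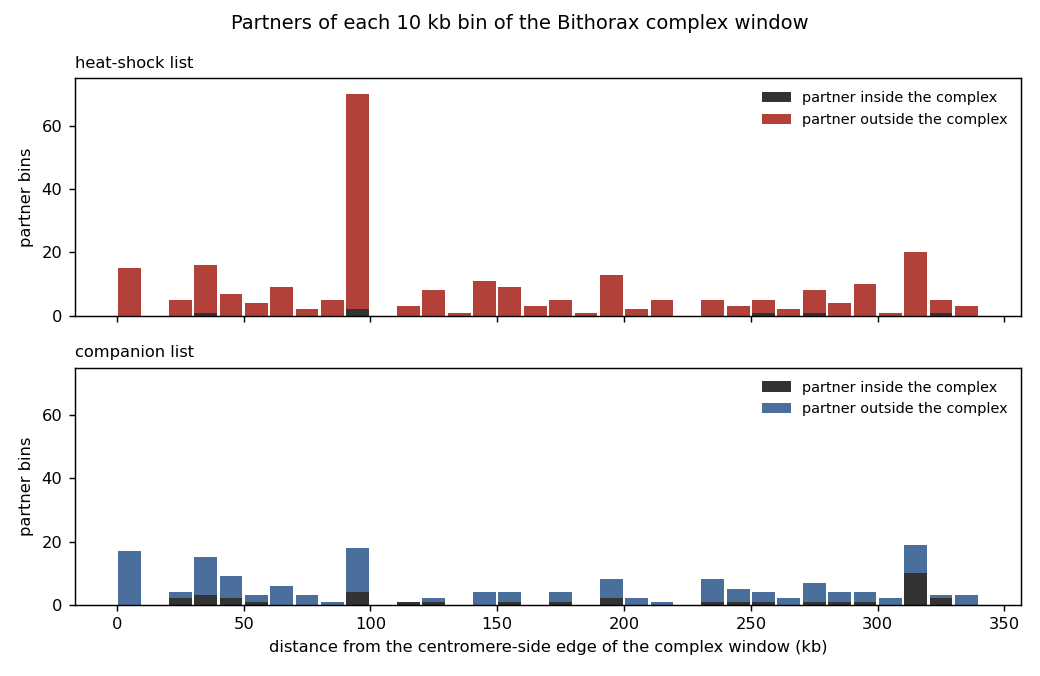
Number of partner bins (y axis) of each 10 kb bin of the Bithorax complex window, by distance from its centromere-side edge (x axis, kb), in the heat-shock list (top) and the companion list (bottom). Dark parts of the bars are partners inside the complex; the tall heat-shock bar is the bin with 70 partners, which had 18 in the companion list.

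Across the complex, most bins had more heat-shock than companion partners in the full lists, as on the rest of the arm. Of its 34 bins, 31 were paired in either list and 3 in neither. More heat-shock than companion partners were found for 21 of the 31 (67.7%), against 79.4% of the 3R bins used and 70.8% of the bins of all 5 arms. Fewer were found for 6 of the 31, against 14.7% on 3R and 20.5% on all arms. At least 2 times as many, with 1 added to both counts, were found for 11 of the 31 (35.5%), against 49.0% on 3R and 41.3% on all arms. The shares of the complex were thus close to or below the background in the direction of gain. With as many of the strongest heat-shock pairs taken as the companion list holds, only 6 of 29 bins had more heat-shock partners, against 46% of the 3R bins. The median bin of the complex had 5 partners in the heat-shock list, versus 4 in the companion one, against 7 and 3 on 3R.

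Behind the bin with 70 heat-shock partners, the bins differed between the lists by at most 7 partners, though some ratios were as large as at that bin. The bin 3R 12610001-12620000 had 11 partners in the heat-shock list, versus 4 in the companion one, and 3R 12760001-12770000 had 10 and 4. The bin 3R 12590001-12600000 had 8 heat-shock partners and 2 companion partners, and 3R 12680001-12690000 had 5 and 1. The bin with the largest decrease, 3R 12700001-12710000, had 5 heat-shock partners and 8 companion partners. A decrease of 2 was found at 3 bins, the first bin of the window with 15 heat-shock partners and 17 companion partners, 3R 12510001-12520000 with 7 and 9, and 3R 12710001-12720000 with 3 and 5. The bin 3R 12500001-12510000, with the next most heat-shock partners after 3R 12780001-12790000, had 16 partners there and 15 in the companion list.

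Few pairs of the complex were common to the lists. The 21 shared pairs were 8.17% (5.13 to 12.2%) of its heat-shock pairs and 14.5% (9.19 to 21.3%) of its companion pairs. On 3R, the shared pairs were 13.6% (13.0 to 14.1%) of the heat-shock pairs and 28.4% (27.4 to 29.4%) of the companion pairs. Counting a pair as shared when each bin matched within 1 bin raised the shared part to 26.2% (19.3 to 34.2%) of the companion pairs at the complex, against 45.7% (44.6 to 46.8%) on 3R. The difference was present among leaving pairs over 200 kb to 1 Mb, of which 11 of 49 companion pairs (22.4%, 11.8 to 36.6%) were shared, against 44.2% (42.4 to 46%) on 3R. Over 1 to 5 Mb, 4 of 46 companion pairs (8.7%, 2.42 to 20.8%) were shared, against 17.7% (16.2 to 19.2%) on 3R. Over 5 Mb, 3 of 31 companion pairs (9.68%, 2.04 to 25.8%) were shared, against 6.74% (5.54 to 8.11%) on 3R. The inside pairs shared 3 of 18 (16.7%, 3.58 to 41.4%), against 44.8% (41.3 to 48.3%) of 3R companion pairs of the same distances.

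One outside bin was paired with many bins of the complex in both lists. The bin 3R 12360001-12370000, 110 kb before the first bin of the window, was paired with 11 complex bins in the heat-shock list, versus 8 in the companion one. Of these, 5 were the same in both lists, namely the bins beginning at 12610001, 12720001, 12740001, 12770001 and 12790001. Its strongest heat-shock pair with the complex was with 3R 12790001-12800000, scored -4.57 in the heat-shock list, versus -2.48 in the companion one. Its strongest companion pair with the complex was with 3R 12720001-12730000, scored -2.73 in that list and -3.09 in the heat-shock list. The bin 3R 12360001-12370000 had 144 partners in all in the heat-shock list, versus 24 in the companion one. In the companion list, 3 bins near it followed: 3R 12210001-12220000 was paired with 1 complex bin in the heat-shock list, versus 6 in the companion one, 3R 12190001-12200000 with 0 and 5, and 3R 12230001-12240000 with 0 and 4.

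Other outside bins with several complex partners lay farther away. The bin 3R 13890001-13900000 was paired with 3 complex bins in the heat-shock list, versus 4 in the companion one. The bin 3R 14440001-14450000 was paired with 4 complex bins in the heat-shock list, versus 0 in the companion one, 3R 6320001-6330000 with 3 and 0, and 3R 11100001-11110000 with 3 and 1. In all, these bins had 89 heat-shock and 17 companion partners, 145 and 31, and 165 and 43, in that order. Their partners beyond the complex were thus also more in the heat-shock list, by whose complex pairs they were picked. Of all 3R bins used, 79.4% had more heat-shock than companion partners. The bin 3R 13890001-13900000 had 32 and 42 in all. Most outside bins met a single complex bin, 188 of 212 in the heat-shock list, versus 88 of 99 in the companion one. The lists had 28 of these outside bins in common, 13.2% of the heat-shock ones and 28.3% of the companion ones. The numbers of outside bins with a single complex bin and the shares in common were not computed for other windows of 3R. None of them can thus be called high or low for the arm.

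The strongest 2 heat-shock pairs of the complex spanned over 10 Mb and were companion pairs too. The last bin of the window, which begins at 12800001, was paired with 3R 23360001-23370000, 10.56 Mb away, with a score of -24.9 in the heat-shock list, the ninth strongest of 3R there, and -14.5 in the companion list. The bin 3R 12640001-12650000 was paired with 3R 24880001-24890000, 12.24 Mb away, with -22.4 in the heat-shock list, versus -32.2 in the companion one. A further shared pair over 5 Mb joined 3R 12700001-12710000 to 3R 20960001-20970000, 8.26 Mb apart, with -3.66 in the heat-shock list, versus -13.9 in the companion one.

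Other strong pairs were in 1 list alone. In the heat-shock list these were 3R 6300001-6310000 with 3R 12560001-12570000 at -7.05, 3R 4090001-4100000 with 3R 12750001-12760000 at -6.83, and 3R 10220001-10230000 with 3R 12560001-12570000 at -5.94. In the companion list the strongest pair of the complex joined 3R 9140001-9150000 to 3R 12720001-12730000, 3.58 Mb apart, at -46.8. It was the sixth strongest of 3R in that list. The companion list also held 3R 12620001-12630000 with 3R 24880001-24890000 at -15.8, which shares its distant bin with the pair at 12.24 Mb. Scores at or below -10 went to 2 of the 254 heat-shock pairs with other partners and to 5 of the 127 companion ones, 0.787% and 3.94%, against 0.316% and 1.53% of all 3R pairs. The medians were -2.53 for heat-shock and -2.48 for companion pairs, against -2.61 and -2.55 on 3R.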

How the data were processed

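Hi-C was carried out on heat-shocked Kc167 cells with HindIII, per the labels' protocols. Each deposited list holds pairs of 10 kb bins within a chromosome arm, with the authors' score per pair. The score is negative and never above -2 in either list, and a lower value was taken as stronger. Its base and test, and whether both lists share a scale, cannot be read from the labels or the lists. The submitters' processing notes name Bowtie 0.12.7; no pair caller or genome build is named. Bin positions, given as start and end by the authors' lists, are printed as deposited and counted from 1.

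The 7 other libraries (ChIP and input) were not used here. No read counts accompany the pairs, so depth is unknown and no value rests on replicates. Pairs were selected, classed and counted in Python 3.11.15 with pandas 2.3.3 and scipy 1.17.1. Intervals are 95%: exact binomial for shares, exact conditional binomial for ratios, and order statistics for medians. They reflect counting error alone and take neighbouring pairs as independent, so they are too narrow. The number at the rate of 3R is the sum, over all possible pairs of the region, of the share of all 3R bin pairs at the same distance that the list holds. Pair classes were tested on simulated data.

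The complex, its lists and its comparisons were chosen with earlier results of these data known. Pairs and bins are named by rank: up to 10 pairs per list with the Antennapedia complex, the 5 strongest inside and with other partners in each list, the strongest over 1 Mb apart held by both, the 3 richest bins per list, the 3 largest gains and losses, and the 5 outside bins paired with most complex bins. Other bins and pairs named in the text were chosen after their values were seen. Alternatives were the strongest 50% of each list, equal list length, windows 2 bins wider or narrower, pairs without bins in the top 1% by partners, and sharing within 1 bin.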

Additional observations from a re-analysis of the deposited data

How the results depend on the processing

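Of 78 alternative values for 11 results, 66 remained inside the interval given for the main value (for a number, 1.5 times); 11 moved and 1 crossed a ratio of 1. At equal list length the ratio of pairs touching the complex was 0.979 (3R, 1.22), the heat-shock pairs with other partners numbered 140, and 6 of 29 bins had more heat-shock partners, against 46% on 3R. In the strongest 50% of each list, pairs with other partners numbered 112 (heat-shock) and 53 (companion), and companion inside pairs 5, against 2 heat-shock ones. These 2 settings remove pairs by construction. A window wider by 2 bins had 194 companion pairs with other partners. Sharing within 1 bin raised the shared part of the companion pairs to 26.2%. Chosen after the data were seen, a wider Antennapedia window gave 1 heat-shock pair; without the bin with 70 partners the heat-shock list kept 1 inside pair and a median of 4.43 Mb; without the bin in 10 inside pairs, 8 companion inside pairs were left. With the rate of 3R taken without bins in the top 1%, leaving pairs stood at 0.904 (heat-shock) and 0.782 (companion) times that rate, and inside pairs at 0.502 and 3.63 times. The cause of these moves was not tested. The inside pairs were fewer in the heat-shock list in all settings run. Without the bin in 10 inside pairs they numbered 3 (heat-shock) and 8 (companion), and no interval of that ratio was computed. An interval was computed for the full lists, equal list length and the strongest 50%, and it included 1 in the strongest 50%. Median distances in the strongest 50% were 2.67 Mb (heat-shock) and 2.11 Mb (companion). No bin of the complex was in the top 1% of either list. No paired analysis was possible because the lists carry no replicates, and leaving out 1 library was not possible for the same reason. Depth limits all values: no counts accompany the lists.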

Other observations

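Both bins just past the Abd-B edge of the window were richer in partners than nearly all bins inside it. The bin 3R 12810001-12820000 had 58 partners in the heat-shock list, versus 35 in the companion one, and 3R 12820001-12830000 had 26 and 25. On the Ubx side, 3R 12460001-12470000 had 21 heat-shock partners and 10 companion partners, and 3R 12450001-12460000 had 2 and 1. Few pairs joined the complex to the 340 kb on its telomere side, 5 in the heat-shock list, versus 4 in the companion one, where the rate of 3R gives 22 and 18.5. The 340 kb on its centromere side had 17 pairs with the complex in the heat-shock list, versus 29 in the companion one, where the rate gives the same 22 and 18.5. Pairs that joined these flanks to each other across the complex numbered 21 in the heat-shock list, versus 25 in the companion one, where the rate gives 23.2 and 14.6. These windows were chosen after the data were seen, and no test was made of their differences.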
